A study of Homo sapiens with 6 samples.

Results

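The genes examined here are 10 components of the human microRNA machinery, chosen by name: DROSHA, DGCR8, XPO5, DICER1, AGO1, AGO2, AGO3, AGO4, TNRC6A and TNRC6B. Their members on the array were the probes annotated with one of these symbols, which were 17 of 48701 probes. Of these, 9 probes passed the detection filter, 1 for each gene except AGO4, so 9 of the 10 genes were tested, among 8018 tested genes of 18774 on the array. The cells were HEK293T, a transformed human embryonic kidney line that takes up plasmid readily. The groups were cells transfected with 2 µg of the cloned miR-23a/27a/24-2 cluster, cells transfected with 4 µg of the same clone, and untransfected cells, which served as the control. Each group had 2 arrays, which the study design calls biological duplicates. No group received a plasmid without the cluster, so the cluster and transfection itself cannot be told apart. The arrays of each group also held neighbouring positions on the same chip, so group and position cannot be told apart. Levels of the microRNAs themselves were not analysed here.

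A primary microRNA transcript folds into a hairpin, which the Microprocessor (the nuclease DROSHA and its RNA-binding partner DGCR8) cuts out in the nucleus. Exportin-5, the product of XPO5, carries the hairpin to the cytoplasm, where DICER1 cuts it to a short duplex. An Argonaute protein (AGO1 to AGO4) keeps one strand as its guide, and a GW182 protein such as TNRC6A or TNRC6B joins it to the deadenylases that shorten the tails of bound messenger RNAs. MicroRNAs made by this route pass through these steps. Whether those of the transfected cluster did so was not measured here.

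The hairpins of the cluster are shown, with the 3p mature strand in capitals, because the transfected plasmid carries them. All lie on the minus strand of chromosome 19 in RefSeq's GRCh38.p14, MIR23A at chr19:13836587-13836659, MIR27A at chr19:13836440-13836517 and MIR24-2 at chr19:13836287-13836359.
MIR23A: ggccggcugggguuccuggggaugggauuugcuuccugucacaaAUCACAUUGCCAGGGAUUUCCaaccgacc
MIR27A: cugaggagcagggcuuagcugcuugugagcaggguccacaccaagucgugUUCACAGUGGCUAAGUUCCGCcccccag
MIR24-2: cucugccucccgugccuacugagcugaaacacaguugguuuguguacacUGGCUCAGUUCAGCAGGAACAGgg
The mature 3p strands are the guides that Argonaute proteins hold, shown here with the seed (bases 2 to 8) in capitals.
hsa-miR-23a-3p: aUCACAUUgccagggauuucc
hsa-miR-27a-3p: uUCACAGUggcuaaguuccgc
hsa-miR-24-3p: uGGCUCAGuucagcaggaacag
The hairpins are 73, 78 and 73 bases long in that order. The 3 seeds are different. Those of miR-23a and miR-27a have their first 5 letters in common, while the seed of miR-24 shares no leading letter with either.

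Across arrays, the number of probes detected at a detection p under 0.01 was 9278 and 9553 at 2 µg, 9768 and 10371 at 4 µg, and 9558 and 9721 in the control. Each value was read from a median of 40 beads. Of 8 marker genes of HEK293T cells, 6 were detected, and PAX2 and LHX1 were not detected on any array. Summed intensities of these markers were 9565 to 10385 at 2 µg, 11747 to 12052 at 4 µg and 10729 to 11887 in the control. All such sums here are of intensities before background correction and normalization, over every probe of a list, detected or not. The median intensity over all probes was 155 to 171 per array, so background makes up much of the smaller sums. KRT8 and NEFL were lower at both doses than in the control, and VIM was lower at 2 µg. NEFL was not above background at 2 µg, where it was at least 3.80-fold lower. NEFL and NEFM were each detected on 4 of the 6 arrays. KRT18, NEFM and CDH2 were not called at either dose, and CDH2 had positive log2 changes of 0.39 at 2 µg and 0.49 at 4 µg. Of 18 markers of other cells, 17 had a probe and 6 were detected on at least 1 array. The haematopoietic marker CD68 was detected, and PTPRC, CD3E and CD14 were not. Summed intensities of the haematopoietic markers were 1201 to 1268 at 2 µg, 1166 to 1300.2 at 4 µg and 1064 to 1084 in the control. Those of the fibroblast markers (COL1A1, COL3A1 and LUM detected; COL1A2, DCN and THY1 not) were 1611 to 1706 at 2 µg, 1690.2 to 1749.7 at 4 µg and 1845 to 1856 in the control. Those of the endothelial markers (VWF detected; PECAM1, CDH5 and KDR not) were 642 to 697 at 2 µg, 649 to 671 at 4 µg and 604 to 615 in the control. Those of the hepatocyte markers (ALB detected; APOA1 and TTR not) were 564 to 627 at 2 µg, 564 to 571 at 4 µg and 541 to 567 in the control. CD68 was higher at both doses (0.79 and 0.74 on the log2 scale at 2 µg and 4 µg), while COL1A1 (-0.99 and -0.87, detected on 1 of 2 arrays at each dose) and COL3A1 (-0.88 and -0.66) were lower. VWF was not above background in the control and was at least 1.38-fold higher at 2 µg and at least 1.12-fold higher at 4 µg (limma adjusted p = 8.01e-05 and 0.00121), with bounds set by the lowest signal that was detected on each array. LUM was not above background at 2 µg, where it was at least 1.23-fold lower (limma adjusted p = 0.00193), and had a log2 change of 0.21 at 4 µg, which was not called. The part of these markers in the results on the microRNA machinery was not tested.

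The comparison of each dose with the control asked which steps of the pathway differed in messenger RNA level in cells carrying the cluster plasmid. At 2 µg, TNRC6B and AGO1 were lower and AGO3 and XPO5 were higher than in the control. At 4 µg, TNRC6B, AGO1 and DROSHA were lower and AGO3 was higher. TNRC6B changed most, falling 2.29-fold at 2 µg and 1.81-fold at 4 µg. Between the doses, DICER1 was lower at 4 µg than at 2 µg. A gene is said to have changed where limma's adjusted p, after Benjamini-Hochberg adjustment over all tested genes, was under 0.05. Log2 changes are given with their standard errors and 95% confidence intervals, from 2 arrays per group. Because total RNA of whole cultures was measured, fewer cells with a transcript and less of it per cell cannot be told apart.

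At 2 µg 4 of the 9 tested genes were called, against 41.6% of all tested genes, and at 4 µg 4 of 9 were called, against 22.0%. Between the doses 1 of 9 was called, against 8.79%. At 2 µg 2 were higher and 2 lower, against 21.8% and 19.8% of all tested genes. At 4 µg 1 was higher and 3 lower, against 11.8% and 10.2%. Between the doses 0 were higher and 1 lower, against 5.23% and 3.57%. With every kept probe as its own row, 4, 3 and 1 of the 9 member probes were called at 2 µg, at 4 µg and for 4 µg against 2 µg, beside 39.6%, 20.6% and 7.74% of all kept probes. The share called at 2 µg is close to the background. The median log2 change of the 9 genes was 0.018 at 2 µg, beside 0.025 over all tested genes, and -0.23 at 4 µg, beside 0.027. The median size of change was 0.37 at 2 µg, beside 0.32 over all tested genes, and 0.38 at 4 µg, beside 0.24. After normalization, both arrays of one group lay above both of the other for 8 of 9 genes at 2 µg. The same held for 8 of 9 at 4 µg, against 69.6% and 65.8% of all tested genes at 2 µg and 4 µg. The comparisons with the control share the control arrays.

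**Figure D1:**
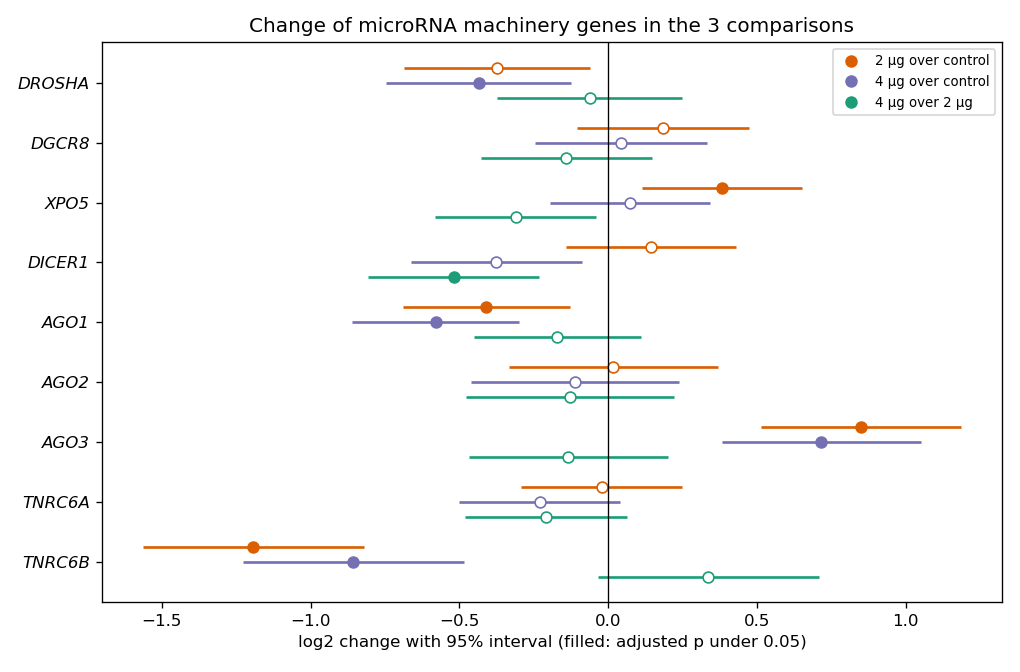
Log2 change with its 95% confidence interval for the 9 tested genes at 2 µg against control, at 4 µg against control and at 4 µg against 2 µg. Filled points passed an adjusted p under 0.05. TNRC6B lies furthest below 0 at both doses and AGO3 furthest above.

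DROSHA and DGCR8 were not tested against each other. DROSHA, the nuclease, had normalized log2 levels of 10.24 and 10.27 at 2 µg, 10.25 and 10.14 at 4 µg, and 10.47 and 10.79 in the control. On this normalized scale both control arrays were above all 4 transfected arrays, and the control arrays also differed most from each other. Scanner intensities were 1304 and 1366 at 2 µg, 1430.5 and 1430.6 at 4 µg, and 1386 and 1825 in the control. Before normalization the first control array was therefore below both 4 µg arrays. The log2 change was -0.37 ± 0.14 at 2 µg (interval -0.68 to -0.06, limma adjusted p = 0.0548), and it was not called. At 4 µg the change was -0.44 ± 0.14 (interval -0.75 to -0.12, limma adjusted p = 0.0496), 1.35-fold lower. That call was lost under 10 of 16 alternative settings, with limma adjusted p up to 0.332. Among them were the fits without control replicate 2 (0.259), 2 µg replicate 1 (0.0522), 4 µg replicate 1 (0.136) or 4 µg replicate 2 (0.229), the replicate block (0.0563) and median scaling over all probes (0.332). DGCR8 is the RNA-binding partner of DROSHA and holds the upper part of the hairpin. Its levels were 8.79 and 8.58 at 2 µg, 8.54 and 8.55 at 4 µg, and 8.47 and 8.53 in the control, and its changes of 0.18 ± 0.13 at 2 µg (interval -0.10 to 0.47) and 0.043 ± 0.13 at 4 µg (interval -0.24 to 0.33) were not called.

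XPO5, which exports the hairpins, was higher at 2 µg. Its levels were 10.65 and 10.71 at 2 µg, 10.36 and 10.38 at 4 µg, and 10.29 and 10.30 in the control. The duplicates lay close together, and both 2 µg arrays were above the others. The change at 2 µg was 0.38 ± 0.12 (interval 0.11 to 0.65, limma adjusted p = 0.027), 1.30-fold, and it was lost in 7 of 16 alternatives. These were the fits without control replicate 1 (limma adjusted p = 0.0945), control replicate 2 (0.0786), 2 µg replicate 2 (0.0814), 4 µg replicate 1 (0.0523) or 4 µg replicate 2 (0.0514), of only the groups compared (0.0535) and with median scaling over all probes (0.0615). At 4 µg the change was 0.073 ± 0.12 (interval -0.20 to 0.34, limma adjusted p = 0.701). With median scaling over all probes the 4 µg change was 0.26 (limma adjusted p = 0.306), or 0.075 relative to the median of all tested genes. Scanner intensities were 1542 and 1658 at 4 µg and 1225 and 1356 in the control, so the 4 µg level depends on the scaling. The difference between the doses, -0.31 ± 0.12 (interval -0.58 to -0.04), was not called (limma adjusted p = 0.132).

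DICER1, which cuts the hairpin to a duplex, had levels of 9.52 and 9.56 at 2 µg, 9.09 and 8.95 at 4 µg, and 9.47 and 9.32 in the control. The 4 µg arrays were lower than all others. The change against the control was 0.14 ± 0.13 at 2 µg (limma adjusted p = 0.396) and -0.38 ± 0.13 at 4 µg (interval -0.66 to -0.09, limma adjusted p = 0.0611), neither of them called. DICER1 was 1.43-fold lower at 4 µg than at 2 µg (log2 change -0.52 ± 0.13, interval -0.81 to -0.23, limma adjusted p = 0.0357). This is the only one of the 9 genes called between the doses. The call was lost on leaving out any 1 of the 4 arrays of those doses (limma adjusted p 0.0934 and 0.086 without the 2 µg arrays and 0.131 and 0.208 without the 4 µg arrays), with no detection filter (0.0658) and with median scaling over all probes (0.175).

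**Figure D2:**
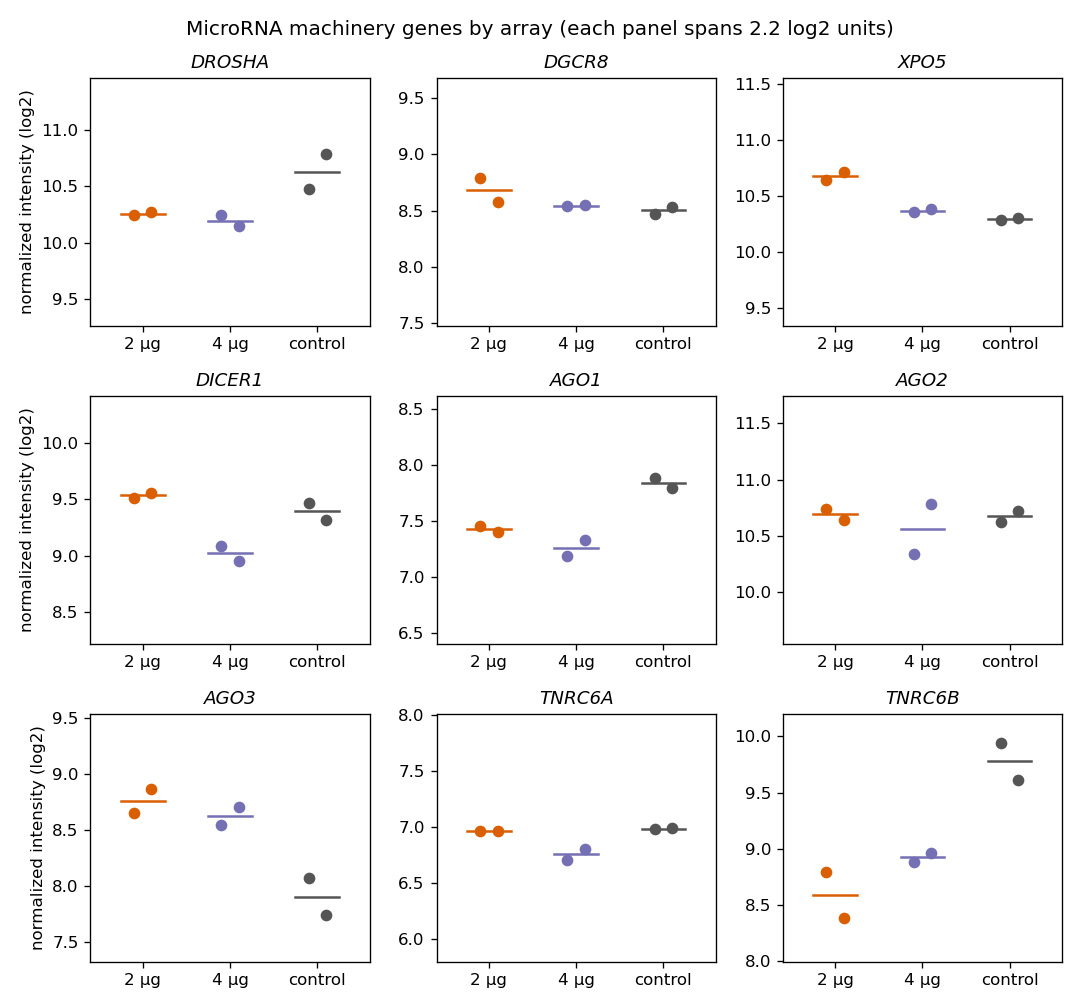
Normalized log2 level of each of the 9 tested genes on each array, with the 2 µg arrays, the 4 µg arrays and the control arrays from left to right. The points are arrays and the bars are group means. Both control arrays of TNRC6B and AGO1 lie above every transfected array, and both of AGO3 below.

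The Argonaute genes, whose proteins hold the guide strand, moved in different directions. AGO1 had levels of 7.46 and 7.40 at 2 µg, 7.19 and 7.33 at 4 µg, and 7.88 and 7.80 in the control. All 4 transfected arrays were below both controls. Scanner intensities were low but show the same separation, with 310 and 293 at 2 µg, 286 and 321 at 4 µg, and 347 and 357 in the control. The log2 change of AGO1 was -0.41 ± 0.13 at 2 µg (interval -0.69 to -0.13, limma adjusted p = 0.0243), 1.33-fold lower, and -0.58 ± 0.13 at 4 µg (interval -0.86 to -0.30, limma adjusted p = 0.0101), 1.49-fold lower. Leaving out an array ended its call at 2 µg in 3 cases (without control replicate 1 or 2 or 2 µg replicate 2, limma adjusted p 0.11, 0.0562 and 0.0777) and at 4 µg in 2 (without control replicate 1 or 4 µg replicate 1, 0.0647 and 0.0934). Median scaling over all probes also ended both calls (0.058 and 0.0992). Over the 16 alternatives the change of AGO1 ran from -0.46 to -0.24 at 2 µg and from -0.64 to -0.33 at 4 µg.

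AGO3 behaved the other way. Its levels were 8.65 and 8.86 at 2 µg, 8.55 and 8.70 at 4 µg, and 8.07 and 7.74 in the control. All 4 transfected arrays were above both controls, and the scanner intensities show the same separation, with 528 and 583 at 2 µg, 531 and 617 at 4 µg, and 374 and 348 in the control. The change was 0.85 ± 0.15 at 2 µg (interval 0.51 to 1.19, limma adjusted p = 0.00144), 1.80-fold, and 0.72 ± 0.15 at 4 µg (interval 0.38 to 1.05, limma adjusted p = 0.00881), 1.64-fold. At 2 µg, 11.8% of tested genes had a change at least as large, and at 4 µg 7.16% did. The 2 µg call held in all 16 alternatives (limma adjusted p at most 0.0169), and the 4 µg call was lost on leaving out control replicate 2 (limma adjusted p = 0.0674) or 4 µg replicate 2 (0.0663).

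AGO2 encodes the Argonaute best known for cutting its targets. Its levels were 10.74 and 10.64 at 2 µg, 10.34 and 10.78 at 4 µg, and 10.62 and 10.72 in the control, and the 4 µg duplicates differed from each other by more than the groups did. It was not called at 2 µg (0.018 ± 0.16, interval -0.33 to 0.37) or at 4 µg (-0.11 ± 0.16, interval -0.46 to 0.24). The single AGO4 probe had intensities of 209.8 and 191 at 2 µg, 186 and 195 at 4 µg, and 184 and 207 in the control. Its detection p was between 0.032 and 0.135, so AGO4 was not detected and not tested.

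AGO4, AGO1 and AGO3 are neighbours among the protein-coding genes of chromosome 1. The promoters of AGO1 and AGO3 are shown because these neighbours changed in opposite directions, from 250 bases before to 50 bases after the start (RefSeq, GRCh38.p14, plus strand), with TGACG, the core of the cAMP response element, in capitals, at chr1:35882959-35883258 for AGO1 and chr1:35930855-35931154 for AGO3.
AGO1: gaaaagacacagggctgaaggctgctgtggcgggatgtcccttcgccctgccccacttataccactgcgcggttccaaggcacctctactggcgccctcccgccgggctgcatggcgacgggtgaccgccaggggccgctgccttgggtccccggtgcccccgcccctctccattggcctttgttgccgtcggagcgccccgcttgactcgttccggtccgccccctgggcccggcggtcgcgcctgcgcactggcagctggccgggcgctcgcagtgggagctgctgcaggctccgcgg
AGO3: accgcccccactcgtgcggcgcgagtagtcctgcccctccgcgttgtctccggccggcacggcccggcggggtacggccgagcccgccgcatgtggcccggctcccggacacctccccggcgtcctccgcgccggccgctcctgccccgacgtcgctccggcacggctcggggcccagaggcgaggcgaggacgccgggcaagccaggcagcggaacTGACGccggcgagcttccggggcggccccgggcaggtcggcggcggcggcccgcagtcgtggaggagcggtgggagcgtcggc
The AGO1 promoter is 72.3% GC and the AGO3 promoter 80.0%, against a median of 58.7% over 35116 promoters. They hold 30 and 50 CpG dinucleotides, against a median of 14. TGACG, searched on both strands, occurs in 24.6% of the 35116 promoters. AGO1 holds 0 and AGO3 holds 1, which lies 33 bases before the start. The longer motifs TGACGTCA and TGAGTCA, in 1.85% and 4.95% of promoters, were in neither window. The promoter of TNRC6B, which was lower at both doses, also holds 1 TGACG. The part of this motif in the changes of these genes was not tested.

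TNRC6B and TNRC6A encode GW182 scaffolds that join Argonaute to the deadenylases. TNRC6B had levels of 8.79 and 8.38 at 2 µg, 8.88 and 8.96 at 4 µg, and 9.94 and 9.61 in the control. Its scanner intensities, with bead standard errors, were 567 ± 24.9 and 455 ± 17.7 at 2 µg, 640.2 ± 33.7 and 714 ± 41.7 at 4 µg, and 997 ± 36.6 and 882 ± 54.3 in the control. The transfected arrays were below both controls on both scales. The log2 change was -1.19 ± 0.17 at 2 µg (interval -1.56 to -0.82, limma adjusted p = 0.000381), with 3.94% of tested genes at least as large. It was -0.86 ± 0.17 at 4 µg (interval -1.23 to -0.49, limma adjusted p = 0.00643), with 3.99% at least as large. The 2 µg call held in all 16 alternatives, with changes from -1.39 to -0.96, while the 4 µg call was lost without the first control array (limma adjusted p = 0.0597). Between the doses, TNRC6B differed by 0.34 ± 0.17 (interval -0.04 to 0.71), which was not called.

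TNRC6A was read by a probe with intensities of 265 and 251 at 2 µg, 240.5 and 259 at 4 µg, and 255 and 265 in the control. Its log2 levels were 6.96 and 6.97 at 2 µg, 6.71 and 6.81 at 4 µg, and 6.99 and 6.99 in the control. It was not called at 2 µg (-0.022 ± 0.12, interval -0.29 to 0.25) or at 4 µg (-0.23 ± 0.12, interval -0.50 to 0.04, limma adjusted p = 0.201).

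The promoter of TNRC6B, which changed most, lies at chr22:40044584-40044883 on the plus strand (RefSeq, GRCh38.p14), with TGACG in capitals.
TNRC6B: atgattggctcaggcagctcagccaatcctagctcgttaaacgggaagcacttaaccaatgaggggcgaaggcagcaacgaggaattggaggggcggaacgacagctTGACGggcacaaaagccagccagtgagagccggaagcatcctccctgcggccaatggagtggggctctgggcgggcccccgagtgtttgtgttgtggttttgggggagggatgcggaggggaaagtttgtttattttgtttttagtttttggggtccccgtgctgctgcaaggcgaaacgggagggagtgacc
It is 57.3% GC with 15 CpG dinucleotides, close to the medians over all promoters, and holds 1 TGACG, which lies 143 bases before the start. TGACGTCA and TGAGTCA were not found in this window.

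Each gene's result rests on 1 probe. The 9 kept probes had intensities from 240.5 to 2155 and 27 to 70 beads. The other 8 probes, of DICER1, AGO3, AGO4, TNRC6A and TNRC6B, had intensities from 127 to 209.8 with detection p from 0.032 to 0.584, and none was detected on any array. The undetected probes of DICER1, TNRC6A and TNRC6B include ones on the same transcript record as the detected probe.

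**Figure D3:**
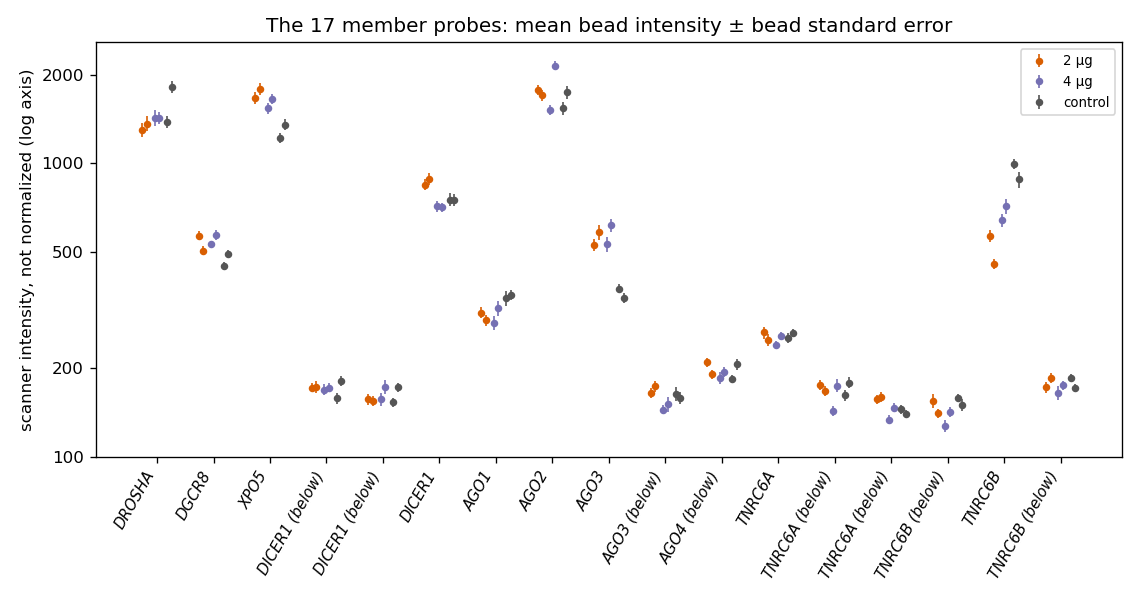
Mean bead intensity with its bead standard error for the 17 member probes on a log axis, by group. The 8 probes that failed the filter lie at or below 209.8, and the 9 that passed lie at or above 240.5.

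Genes whose levels followed most closely those of the members called against the control over the 6 arrays were chosen by the smallest root mean square difference of centred log2 levels, a description with no test. The closest were TM7SF2 at 0.0954 for TNRC6B, TRIM35 at 0.0535 for AGO3, CYP2J2 at 0.0524 for AGO1, CSNK1D at 0.0218 for XPO5 and PTPN23 at 0.0369 for DROSHA. The next closest were BMP7 and MXD4 for TNRC6B, EMILIN2 and CREBZF for AGO3, DYRK2 and SERTAD3 for AGO1, MRPL17 and UBQLN1 for XPO5, and ACLY and BZW2 for DROSHA.

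The steps around these 10 genes were followed through 6 lists of 93 other genes, of which 68 were tested. At 2 µg 13 were higher, 8 lower and 47 not called, so 30.9% were called, against 41.6% of all tested genes. At 4 µg 3 were higher, 6 lower and 59 not called, or 13.2% against 22.0%. These shares are below the background at both doses, and both comparisons use the same control arrays. Between the doses 1 of the 68 was higher and 1 lower, or 2.94%, against 8.79% of all tested genes. The median log2 change at 2 µg and at 4 µg was 0.041 and 0.056 for biogenesis and loading factors, -0.11 and -0.11 for Microprocessor accessory proteins, 0.50 and 0.22 for uridylation, -0.12 and -0.14 for chaperones, 0.14 and 0.049 for deadenylation, and -0.0010 and 0.031 for decapping, beside 0.025 and 0.027 over all tested genes.

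Among 13 tested biogenesis and loading factors, 2 were higher and 0 lower at 2 µg and 0 higher and 1 lower at 4 µg, so 15.4% and 7.69% were called, against 41.6% and 22.0% of all tested genes. TARBP2, the double-stranded RNA-binding partner of DICER1, was higher at 2 µg (0.40 ± 0.13, limma adjusted p = 0.0306), as was TSNAX, a subunit of the C3PO nuclease (0.55 ± 0.18, 0.028). SND1, a nuclease that has been found in the silencing complex, was lower at 4 µg (-0.46 ± 0.13, limma adjusted p = 0.0283), with -0.29 at 2 µg, which was not called. FXR2 was detected on both 4 µg arrays and on neither 2 µg array nor control array, and it was at least 1.11-fold higher at 4 µg than in the control, which was not called. Each of these 3 calls was lost on leaving out single arrays: control replicate 1 or either 2 µg array for TSNAX (limma adjusted p up to 0.226), any control or 2 µg array for TARBP2 (up to 0.126), and any control or 4 µg array for SND1 (up to 0.188).

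Among 13 tested Microprocessor accessory proteins, 2 were higher and 1 lower at 2 µg and 1 higher and 0 lower at 4 µg, or 23.1% and 7.69% against 41.6% and 22.0% of all tested genes. NCBP1, the large subunit of the nuclear cap-binding complex, was higher at 2 µg (0.99 ± 0.14, limma adjusted p = 0.000361) and at 4 µg (0.67 ± 0.14, 0.00757). DDX5, an RNA helicase of the Microprocessor, was higher at 2 µg (0.69 ± 0.12, limma adjusted p = 0.00146) and had 0.37 at 4 µg, which was not called (0.0543) but was called in 5 of 16 alternatives. The RNA-editing enzyme gene ADARB1 was lower at 2 µg (-0.71 ± 0.17, limma adjusted p = 0.00724). At 2 µg the calls of NCBP1 and DDX5 held under every alternative, and at 4 µg that of NCBP1 was lost without control replicate 1 (limma adjusted p = 0.0511) or 4 µg replicate 2 (0.0779). That of ADARB1 was lost without control replicate 2 (0.0609).

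Of 7 listed genes of let-7 precursor uridylation, 3 were tested. These 3 were higher at 2 µg, where 21.8% of all tested genes were called higher, and 0 of 3 were called at 4 µg, where 22.0% of all tested genes were. LIN28B, which binds the let-7 precursor, changed by 0.44 ± 0.13 (limma adjusted p = 0.0207), TENT2, a terminal nucleotidyltransferase, by 0.65 ± 0.16 (0.00733) and TUT7, which adds uridine, by 0.50 ± 0.15 (0.0225). At 4 µg TENT2 had 0.45, TUT7 0.22 and LIN28B 0.0060, and these were not called. TENT2 at 4 µg (limma adjusted p = 0.0607) was called in 6 of 16 alternatives. The 2 µg call was lost for LIN28B without either control or 2 µg replicate 2 (limma adjusted p up to 0.087), for TUT7 without either control or 2 µg replicate 1 (up to 0.119) and for TENT2 without control replicate 2 or 2 µg replicate 2 (up to 0.0663).

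Among 11 tested chaperones that help load Argonaute, 1 was higher and 4 lower at 2 µg and 0 higher and 3 lower at 4 µg. The higher one was HSPA4 (0.48 ± 0.15, limma adjusted p = 0.0253), which was not followed through the alternatives. Of all tested genes, 21.8% were called higher and 19.8% lower at 2 µg, and 11.8% higher and 10.2% lower at 4 µg. HSPA8, the constitutive HSP70, was lower at 2 µg (-0.89 ± 0.17, limma adjusted p = 0.00181), HSP90AB1 was lower at 2 µg (-0.75 ± 0.15, 0.00289) and at 4 µg (-0.72 ± 0.15, 0.00869), and the HSP40 gene DNAJA1 was lower at 2 µg (-0.48 ± 0.14, 0.018). The HSP90 co-chaperone FKBP4 was lower at 4 µg (-0.50 ± 0.13, limma adjusted p = 0.0187). The 2 µg calls of HSPA8 and HSP90AB1 held in every alternative, while that of DNAJA1 at 2 µg was lost without either control or 2 µg replicate 2 (limma adjusted p up to 0.0992) and that of FKBP4 at 4 µg without any control or 4 µg array (up to 0.12). HSP90AB1 at 4 µg was lost without control replicate 2 (limma adjusted p = 0.0619) or 4 µg replicate 2 (0.0686).

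Among 14 tested deadenylation genes, 3 were higher and 2 lower at 2 µg and 1 higher and 2 lower at 4 µg. The shares called, 35.7% and 21.4%, are near the 41.6% and 22.0% of all tested genes. BTG1, which recruits CCR4-NOT, was higher at 2 µg (0.91 ± 0.13, limma adjusted p = 0.000492) and at 4 µg (0.72 ± 0.13, 0.00525). PAN2, the deadenylase that trims tails first, was lower at 2 µg (-0.63 ± 0.13, limma adjusted p = 0.00331) and higher at 4 µg than at 2 µg (0.83, 0.00699). The PAN2 call between the doses was not followed through the alternatives. CNOT4, a ubiquitin ligase associated with CCR4-NOT, was higher at 2 µg (0.50 ± 0.13, limma adjusted p = 0.0104) on its brightest probe. The array held 3 CNOT4 probes, and the mean of the kept ones changed by 0.27, which was not called (limma adjusted p = 0.117). TOB1, an adaptor of the deadenylase, was lower at 2 µg (-0.46 ± 0.15, limma adjusted p = 0.0267) and at 4 µg (-0.48 ± 0.15, 0.0393). Its 2 µg call was not followed through the alternatives. At 2 µg BTG1 and PAN2 held in every alternative, and CNOT4 was lost without control replicate 2 (limma adjusted p = 0.0726). At 4 µg BTG1 was lost without 4 µg replicate 2 (limma adjusted p = 0.0533) and TOB1 without control replicate 1 or either 4 µg array (up to 0.217).

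Among 14 tested decapping and P body genes, 2 were higher and 1 lower at 2 µg and 1 higher and 0 lower at 4 µg, or 21.4% and 7.14% against 41.6% and 22.0% of all tested genes. LSM3, a subunit of the LSM ring, was lower at 2 µg (-0.58 ± 0.13, limma adjusted p = 0.00609), and PATL1, which binds that ring, was higher (0.51 ± 0.15, 0.0175), as was the decapping cofactor gene DCP1A (0.67 ± 0.22, 0.0319). PATL1 was lower at 4 µg than at 2 µg (-0.62, limma adjusted p = 0.0291), a call that was not followed through the alternatives. At 4 µg EDC3, which enhances decapping, was higher (0.41 ± 0.13, limma adjusted p = 0.0456), and LSM4 had -0.39, which was not called (0.06) but was called in 6 of 16 alternatives. The 2 µg call was lost for LSM3 without control replicate 2 (limma adjusted p = 0.0502), for PATL1 without control replicate 2 or 2 µg replicate 2 (up to 0.118) and for DCP1A without control replicate 1 or either 2 µg array (up to 0.246). The 4 µg call of EDC3 was lost without any 1 control or 4 µg array (up to 0.193).

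**Figure D4:**
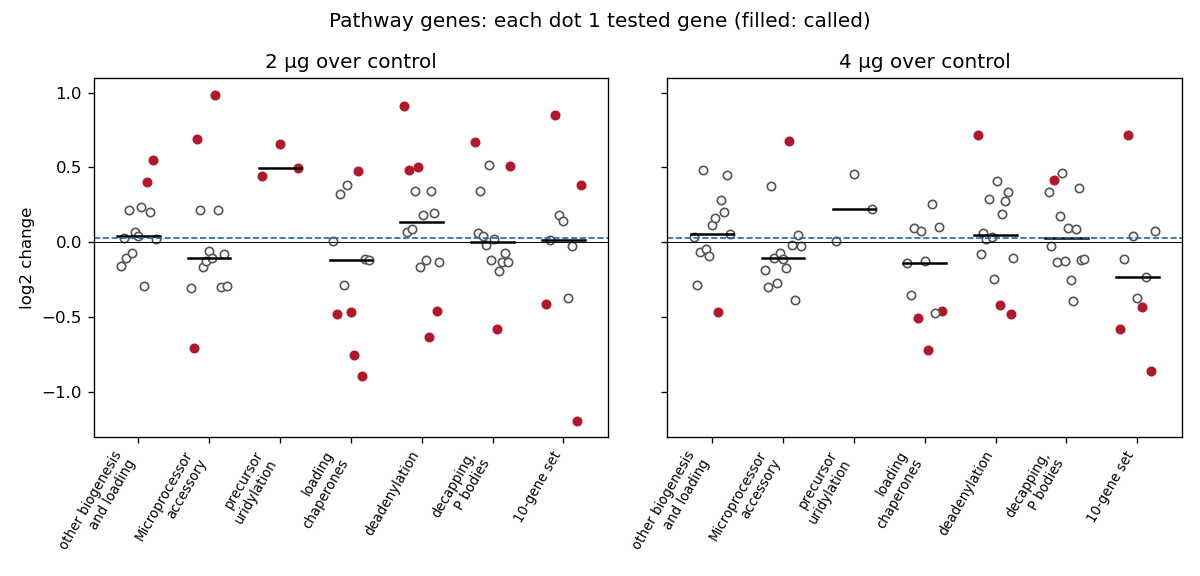
Log2 change of each tested gene in the 6 pathway lists and the 10-gene set, at each dose against control, with filled points for called genes. The dashed line is the median of all tested genes. The 3 uridylation genes lie above 0 at 2 µg and are filled.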

How the data were processed

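Total RNA of 6 HEK293T cultures was labelled and hybridized to Illumina Human-6 arrays, per the labels' protocols, and BeadStudio (version unknown here) was used, per the submitters' processing notes. Mean bead intensities per probe were deposited without normalization, per the file headers. Bead numbers are counts of beads per probe, and detection p-values come from the same software, per the file headers. The authors' processed table holds intensities that were a straight-line function of the scanner values on each array, as found from the values, and was used as an alternative.

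Probes were named from the platform annotation, in which 23687 had 1 symbol, 35 several and 24979 none; of those with 1, 23651 were found by gene identifier in RefSeq's table. In R 4.3.3 with limma 3.58.1, neqc corrected the background with an offset of 16, quantile normalized the arrays and took log2. Probes with a detection p under 0.01 on each of the duplicates in 1 or more groups were kept (10021 probes, 8455 with 1 symbol), and the brightest kept probe stood for its gene (8018 genes). The 3 groups were fitted together by lmFit and eBayes, two-sided, with 3 residual and 7.42 prior degrees of freedom. The number of arrays limits the precision. P-values set each change against the spread between duplicate cultures as labelled. That spread was pooled over the 3 groups and moderated toward that of all tested genes. The fit was tested on simulated data. Sequences are from RefSeq. The 10 members and the lists were chosen with earlier results of these data known. Named were all members and, from each list, the 3 genes of smallest p at 2 µg and the 2 of smallest p at 4 µg. The 3 genes most alike in pattern to each member called against the control were named as well. Genes in the comparison of doses (PAN2, PATL1), HSPA4 and markers were also named after their values were seen. Replacing one choice at a time gave 16 alternatives per comparison.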

Additional observations from a re-analysis of the deposited data

How the results depend on the processing

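Of the 9 tested members, TNRC6B and AGO3 kept their call at 2 µg in all 16 alternatives, 6 of which left out 1 array. The other calls were lost in some, as given beside each result. Median scaling over all probes moved the median log2 change over tested genes at 4 µg against the control to 0.18, beside 0.027, and split the calls into 1600 higher and 357 lower, beside 943 and 817; the authors' values gave 1215 and 536. Between the doses it moved the median to 0.15 and gave 870 higher and 102 lower, beside 419 and 286, and the authors' values gave 391 and 175. Median scaling over all probes also left 2 members called at 2 µg, 2 at 4 µg and 0 between doses. Beside these, 2854, 1957 and 972 of the 8018 tested genes were called in that order. Of the member probes, 2 were called at 2 µg and 0 between doses. Relative to the moved median, TNRC6B changed by -0.83, AGO3 by 0.71, AGO1 by -0.59 and DROSHA by -0.44 at 4 µg. Under this scaling 4 µg against the control was 0.068 for AGO2, and 4 µg against 2 µg was 0.068 for DROSHA, 0.031 for DGCR8, 0.031 for AGO1, 0.013 for AGO2 and 0.035 for AGO3, all of the opposite sign and none called in either setting. Relative to the moved medians these values were -0.12 for AGO2 at 4 µg and, between the doses, -0.082 for DROSHA, -0.12 for DGCR8, -0.12 for AGO1, -0.14 for AGO2 and -0.11 for AGO3, which have the original sign. AGO2, never called, also turned sign on leaving out 1 array, with ranges of -0.032 to 0.066 at 2 µg (-0.030 without control replicate 1, -0.032 without 2 µg replicate 1), -0.33 to 0.11 at 4 µg (0.11 without 4 µg replicate 1) and -0.35 to 0.095 between the doses (0.095 without 4 µg replicate 1). The cause was not tested.

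Without a detection filter 0 members and 273 of all genes were called between the doses, and 1 member probe at 4 µg and 0 between doses. With no background correction 5 member probes were called at 4 µg. The authors' values and a fit of only the groups compared each gave 0 member probes between doses. Leaving out 1 array, the members called were 2 to 4 at 2 µg, 2 to 4 at 4 µg and 0 to 1 between doses; the member probes called were 2 to 3, 1 to 3 and 0 in the same order. All genes called were 2472 to 3110 at 2 µg, 728 to 2009 at 4 µg (772 and 937 without control replicate 1 and 2, 728 and 739 without 4 µg replicate 1 and 2), and 96 to 559 between doses (202 without 2 µg replicate 1, 96 and 121 without 4 µg replicate 1 and 2).

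With the replicate number as a block, the call of DROSHA at 4 µg was lost (limma adjusted p = 0.0563), and the other calls of members were kept. Same-numbered arrays deviated with correlations of -0.04 (2 µg and control), -0.09 (4 µg and control) and 0.11 (4 µg and 2 µg), so the numbers were not taken to pair the samples. Of calls among the pathway lists at 2 µg, TARBP2 was also lost with median scaling over all probes (limma adjusted p = 0.0868), TSNAX (0.0802), TUT7 (0.0524) and DCP1A (0.109) without a detection filter, and CNOT4 with the mean of kept probes (0.117). At 4 µg SND1 (0.115), FKBP4 (0.121) and TOB1 (0.249) were lost with that scaling, TOB1 also with the authors' values (0.102), and TOB1 (0.082) and EDC3 (0.0707) without a filter. EDC3 was lost as well with median scaling over kept probes (0.0549), in the probe-level fit (0.0516) and with the block (0.0575). Called only in some alternatives were DROSHA (3 of 16, limma adjusted p from 0.0214) and SND1 (1, 0.0322) at 2 µg, and DICER1 (1, 0.0329), DDX5 (5, from 0.0128), TENT2 (6, from 0.0141), LSM4 (6, from 0.0209) and FXR2 (2, from 0.0235) at 4 µg. Signal over background limits AGO4 and the 8 undetected probes.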
